A study of Mus musculus with 12 samples.

Results

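The 10 genes described here were read from the count table by their symbols. All but Phf6 act in setting or removing the 2 best known repressive marks on chromatin. The 10 include Ezh1, Ezh2, Eed and Suz12 of Polycomb repressive complex 2 (PRC2), and the H3K27 demethylases Kdm6a and Kdm6b. The others are the chromatin-binding protein gene Phf6, the DNA methyltransferases Dnmt1 and Dnmt3a, and the methylcytosine oxidase Tet2. Together they are 10 of the 54351 genes in that table. Polyadenylated RNA was sequenced from T-cell acute lymphoblastic leukaemia (T-ALL) of LN3 mice, labelled LN3 tg on the C57BL/6 strain and taken when overtly sick, and from tumour-free C57BL/6J mice labelled wildtype (WT). There were 4 groups of 3 libraries: LN3 T-ALL cells of the thymus (LN3 thymus), LN3 T-ALL cells of the spleen (LN3 spleen), WT thymocytes, and WT spleen cells enriched for CD8 T cells by negative selection (WT CD8 cells, stated purity 85 to 95%). Neither the promoter that drives the LN3 transgene nor the ages of the mice are given in the sources used here. The LN3 cells were not sorted, so every cell of the dissociated organ could contribute RNA, and the WT CD8 cells are the only enriched group. Nothing in the labels ties each library to an animal of its own, and p-values rest on the spread of these libraries, part of which may be technical. Reads of the long non-coding RNA Xist, made from the inactive X chromosome, marked 6 libraries, at least 1 in each group, and the other 6 had Y-linked genes, so each group drew on at least 2 animals.

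PRC2 is an enzyme complex that places methyl groups on lysine 27 of histone H3 (H3K27), a mark of silenced genes. Ezh2 or its paralog Ezh1 provides the catalytic subunit, and Suz12 and Eed hold the complex together, with Eed also binding the finished mark. Kdm6a and Kdm6b remove that mark. Dnmt1 copies DNA methylation to the new strand after replication, Dnmt3a adds it to unmethylated DNA, and Tet2 oxidizes it on the way to removal. Ezh2 is the form of dividing cells and Ezh1 that of resting cells in many tissues. In human T-ALL, loss-of-function mutations of PRC2 genes, of PHF6 and of the X-linked KDM6A are known. Here only RNA was measured, so mutations, protein and the marks themselves are outside these data.

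The sequences just upstream of the transcription starts are given for Ezh2, Suz12, Dnmt1, Ezh1 and Tet2. Each line holds 250 bases before to 30 bases after the start of a RefSeq transcript on GRCm38.p6, read 5′ to 3′ on the strand of the gene. Capitals mark a match to an E2F site, searched as TTTCCCGC, TTTCGCGC, TTTGCCGC or TTTGGCGC on both strands. E2F factors act on genes of DNA replication. Of the genes shown, Suz12 passed in no comparison of the main fit described below. Dnmt3a, which was higher in LN3 spleen than in WT CD8 cells, held no match and is not shown. The stretches are chr6:47595001-47595280 (minus strand) for Ezh2, chr11:79992856-79993135 (plus strand) for Suz12, chr9:20952594-20952873 (minus strand, 1 of 3 RefSeq starts of the gene) for Dnmt1, chr11:101226434-101226713 (minus strand) for Ezh1 and chr3:133544361-133544640 (minus strand) for Tet2.
Ezh2: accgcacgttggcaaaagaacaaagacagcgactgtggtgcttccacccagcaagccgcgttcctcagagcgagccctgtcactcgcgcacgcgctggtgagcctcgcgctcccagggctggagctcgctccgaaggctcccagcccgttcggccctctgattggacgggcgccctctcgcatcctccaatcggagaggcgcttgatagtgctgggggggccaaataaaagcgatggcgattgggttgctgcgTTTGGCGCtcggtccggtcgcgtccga
Suz12: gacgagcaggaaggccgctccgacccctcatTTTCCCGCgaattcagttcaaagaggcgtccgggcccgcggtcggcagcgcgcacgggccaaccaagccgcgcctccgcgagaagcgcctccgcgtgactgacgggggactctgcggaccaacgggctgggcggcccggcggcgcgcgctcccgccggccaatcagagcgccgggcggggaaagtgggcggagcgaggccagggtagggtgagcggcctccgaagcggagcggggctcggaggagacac
Dnmt1: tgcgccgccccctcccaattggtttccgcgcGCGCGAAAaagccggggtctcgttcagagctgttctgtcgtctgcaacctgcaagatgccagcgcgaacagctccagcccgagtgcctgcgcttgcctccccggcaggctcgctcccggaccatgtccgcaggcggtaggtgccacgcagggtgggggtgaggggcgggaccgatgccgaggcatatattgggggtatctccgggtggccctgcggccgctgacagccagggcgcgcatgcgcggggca
Ezh1: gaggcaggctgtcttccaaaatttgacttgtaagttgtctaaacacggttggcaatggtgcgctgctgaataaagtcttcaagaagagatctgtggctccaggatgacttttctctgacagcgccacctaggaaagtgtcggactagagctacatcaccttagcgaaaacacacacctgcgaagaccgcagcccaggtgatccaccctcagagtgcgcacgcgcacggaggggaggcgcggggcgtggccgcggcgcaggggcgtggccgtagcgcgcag
Tet2: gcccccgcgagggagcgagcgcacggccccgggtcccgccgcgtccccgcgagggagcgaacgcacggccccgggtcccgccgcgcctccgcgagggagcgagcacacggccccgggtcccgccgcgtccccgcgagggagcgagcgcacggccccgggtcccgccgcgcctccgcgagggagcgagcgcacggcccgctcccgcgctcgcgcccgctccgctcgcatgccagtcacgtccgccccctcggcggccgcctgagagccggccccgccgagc

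Within the full windows of 300 bases, Ezh2 held TTTGGCGC at bases 4 to 11 after the start, Suz12 held TTTCCCGC at −219 to −212, and Dnmt1 held TTTCGCGC on the reverse strand at −219 to −212 and TTTGGCGC at 34 to 41, past the stretch shown. These Dnmt1 matches are at the start shown, and the windows of its other RefSeq starts held 0. Ezh1 and Tet2 held none of the 4 words, nor did Eed, Dnmt3a or Kdm6a. RefSeq windows were used for 8 of the 10 genes, without Kdm6b and Phf6, and 3 of these 8 (37.5%) held a match, as did 704 of 27025 genes (2.6%) and 744 of 32851 windows (2.26%). A match describes letters and was not read as a bound site.

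Total counts ran from 12694571 to 42483898 per library, and all 10 genes passed the filter on low counts in a fit of 20897 genes. Levels are given as CPM, the count's parts per 1e6 of the library total after scaling by TMM factors, which assume that most genes do not differ. Scaling by library totals instead moved the median log2 difference of all genes by −0.192 in LN3 thymus against WT thymocytes, by −0.401 in LN3 spleen against WT CD8 cells and by −0.346 in LN3 spleen against WT thymocytes. It turned the share of called genes that were higher to 38.2%, against 53.8% as reported, in the first of these, to 40.0% against 58.0% in the second and to 33.5% against 57.0% in the third. The library WT thymocytes 3 stood apart, at −138.3 on the third principal component, where WT thymocytes 1 and 2 lay at 0.1556 and 44.33. Its counts rose with GC content by 0.959 on the log2 scale per 10% GC, against −0.45 to 0.437 in the other 11 libraries. Among the 10 genes, it lay under the mean of WT thymocytes 1 and 2 by 2.43 on the log2 scale for Tet2, 2.31 for Suz12, 1.93 for Kdm6a and 1.39 for Phf6, and above it by 0.65 for Dnmt1, 0.64 for Dnmt3a, 0.60 for Ezh1 and 0.47 for Kdm6b. CT010467.1, annotated as ribosomal RNA, took 4.61 to 10.5% of the counts in 5 of the 6 LN3 libraries, 0.44% in LN3 thymus 1, 5.11% in WT thymocytes 3 and 0.581 to 1.45% in the other 5 WT libraries. T-cell markers were present in every group, with 9 genes summing to 3150 to 5060 CPM in LN3 thymus and 5700 to 11700 CPM in WT thymocytes, and to 3200 to 3470 CPM in LN3 spleen and 2800 to 4140 CPM in WT CD8 cells. Of the 9, 0 were called higher and 3 lower in LN3 thymus against WT thymocytes, beside 6.06% and 5.21% of all genes. In LN3 spleen against WT CD8 cells 1 was called higher and 2 lower, beside 17.9% and 13%. Cd8a held 264.8, 461.5 and 162.6 CPM in LN3 thymus, against 1522, 1387 and 2625 CPM in WT thymocytes. Cd3e held 627.8, 938.7 and 589.9 CPM, against 417.3, 394.7 and 734.3 CPM in the same groups. Of other cells, 7 erythroid markers summed to 1620 to 5630 CPM in LN3 spleen and 36.5 to 616 CPM in WT CD8 cells, 8 B-cell markers to 298 to 2220 and 515 to 1480 CPM, 8 myeloid markers to 267 to 1390 and 203 to 2950 CPM, and 6 NK-cell markers to 118 to 167 and 328 to 747 CPM in the same pair of groups. In the thymus the erythroid sum was 8.03 to 151 CPM in LN3 thymus and 13.9 to 3930 CPM in WT thymocytes, and the NK-cell sum 125 to 265 and 39.5 to 61.9 CPM. Gzma alone held 121.1, 255 and 182.5 CPM of the NK-cell sum in LN3 thymus, against 24.12, 22.88 and 41.12 CPM in WT thymocytes. Of the 6 NK-cell markers, 1 was called higher and 2 lower in LN3 thymus, with a median log2 difference of −1.09. No B-cell, myeloid, erythroid or NK-cell marker was at 0 throughout a group, and the part of such cells in the results was not tested.

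**Figure D1:**
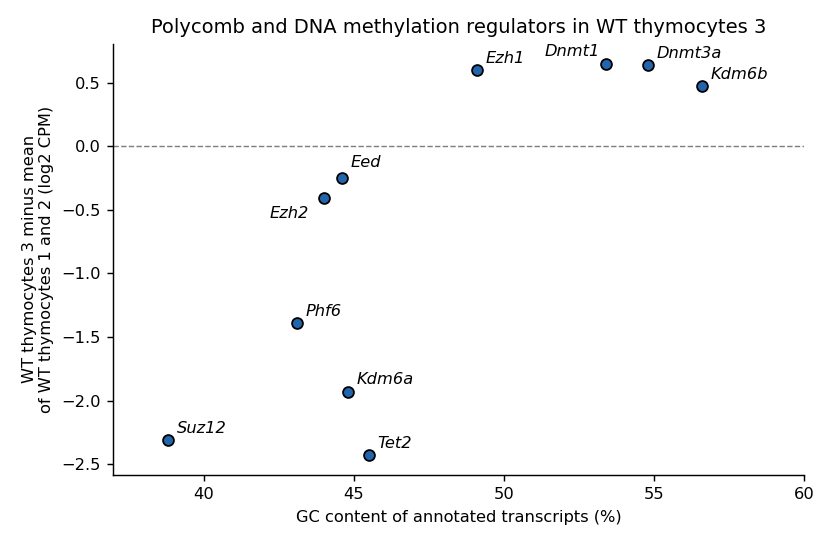
Level of each of the 10 genes in the library WT thymocytes 3 minus its mean in WT thymocytes 1 and 2 (y axis, log2 CPM), beside the GC content of its annotated transcripts (x axis, percent). The 4 genes of highest GC content lie above 0 and Tet2, Suz12, Kdm6a and Phf6 lie 1.39 to 2.43 under it.

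In LN3 spleen against WT CD8 cells, 6 of the 10 genes passed edgeR's quasi-likelihood test at an adjusted p below 0.05, beside a background of 30.9% of all genes tested. Ezh2, Dnmt1, Phf6 and Dnmt3a were higher in LN3 spleen (17.9% of all genes were called higher), and Ezh1 and Tet2 were lower (13% of all genes were called lower). In LN3 thymus against WT thymocytes only Ezh1 passed, lower, 1 of 10 beside a background of 11.3% (6.06% higher and 5.21% lower). In LN3 spleen against WT thymocytes 2 genes passed, Phf6 higher (11.3% of all genes were) and Kdm6b lower (8.52% were), beside 19.8% in all. These comparisons share libraries, and their values are set side by side without a test of likeness. In such bulk samples, fewer cells of a type and less RNA per cell cannot be told apart.

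**Figure D2:**
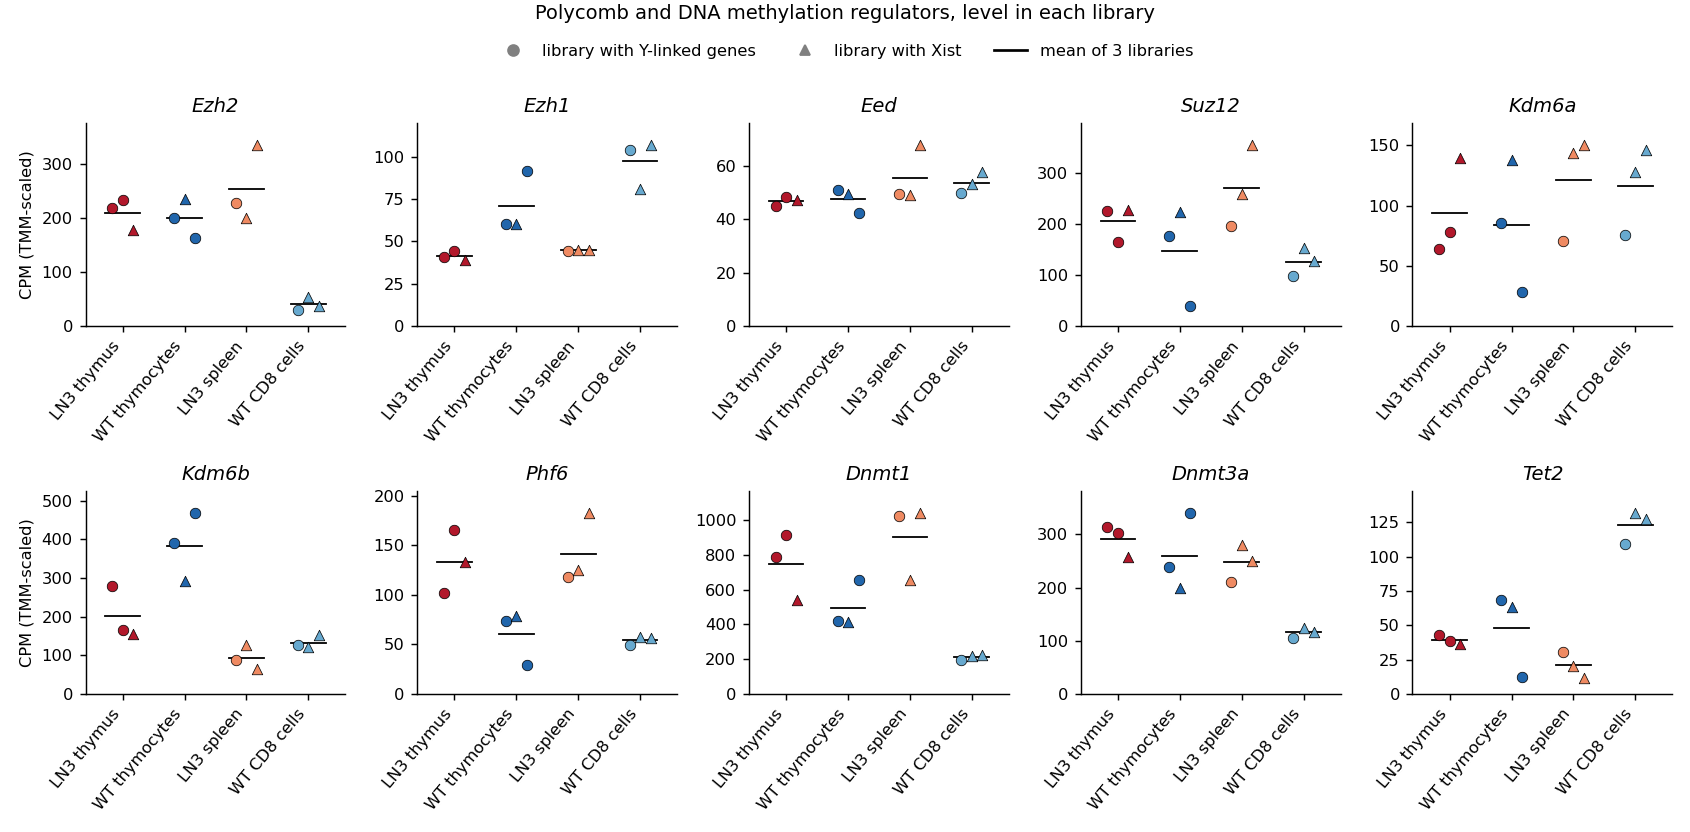
Level of each gene in each library (y axis, TMM-scaled CPM) for LN3 thymus, WT thymocytes, LN3 spleen and WT CD8 cells, with circles for libraries with Y-linked genes, triangles for libraries with Xist and a bar at the mean of 3 libraries. Ezh2 and Dnmt1 are lowest and Tet2 highest in WT CD8 cells, and Kdm6a splits by Xist within every group.

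**Figure D3:**
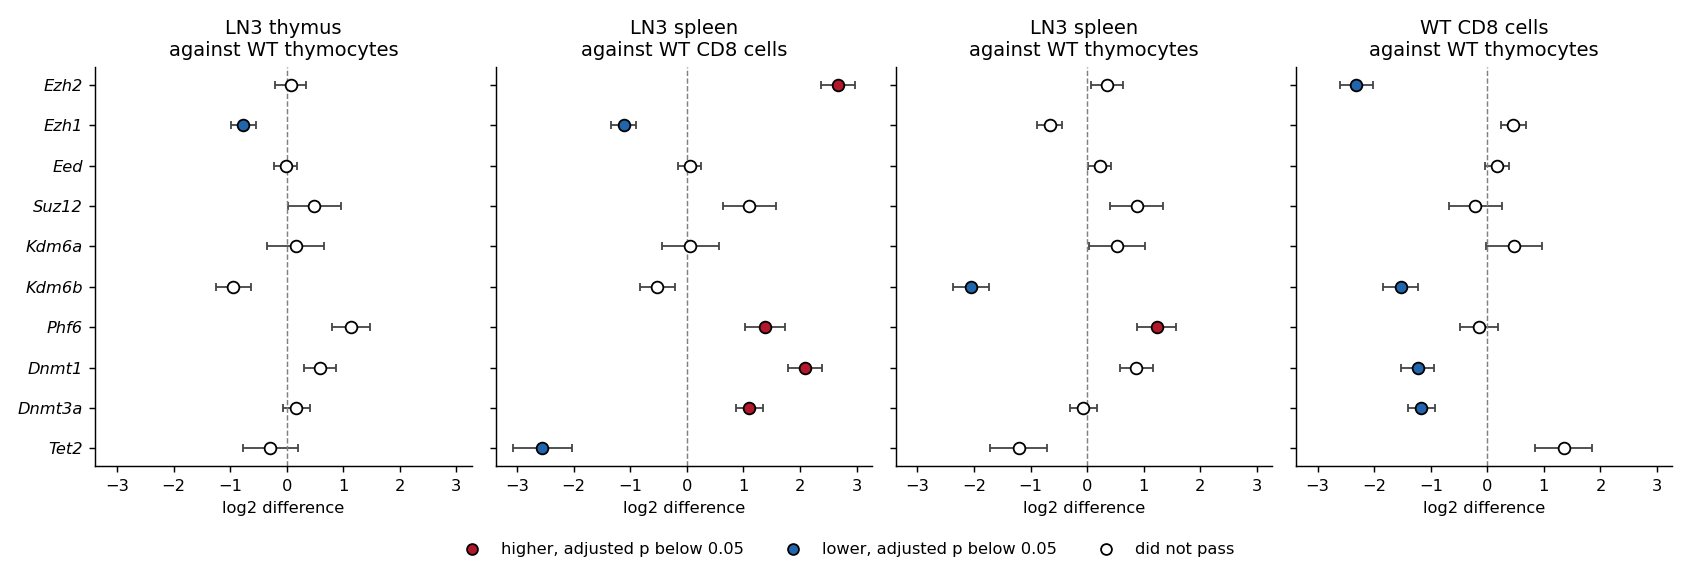
Log2 difference of each gene (x axis, bars of 1 standard error) in 4 comparisons by edgeR's quasi-likelihood test, red for higher and blue for lower at an adjusted p below 0.05, white where the test was not passed. Ezh2 stands at 2.67 in LN3 spleen against WT CD8 cells and at 0.07 in LN3 thymus against WT thymocytes.

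Ezh2 (chr6:47530139-47595341, GRCm38), the PRC2 catalytic subunit of dividing cells, had 227.1, 200.9 and 334.8 CPM in LN3 spleen, against 29.18, 53.06 and 37.17 CPM in WT CD8 cells. The lowest LN3 spleen library was well above the highest WT CD8 library. The difference was 2.67 on the log2 scale (SE 0.30, adjusted p = 7.29e-05), a 6.38-fold higher level in LN3 spleen. In the thymus Ezh2 had 219.2, 232.9 and 177.1 CPM in LN3 thymus, against 199.9, 234.9 and 162.8 CPM in WT thymocytes. These groups overlapped, with a log2 difference of 0.07 (SE 0.28, adjusted p = 0.904) that turned to between −0.17 and −0.04 under library totals, upper-quartile scaling, a GC correction and without WT thymocytes 3. WT CD8 cells were also 5-fold lower than WT thymocytes (log2 −2.32, SE 0.29, adjusted p = 0.000302), and the WT CD8 group alone lay apart for Ezh2. LN3 spleen and WT thymocytes, the pair without WT CD8 cells, differed by 0.35 (SE 0.28, adjusted p = 0.374).

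The difference between the organs was itself tested. The LN3 effect on Ezh2 in the spleen, against WT CD8 cells, exceeded that in the thymus, against WT thymocytes, by a log2 difference of 2.60 (SE 0.40, adjusted p = 0.00435), the only 1 of the 10 genes to pass that test, beside 4.19% of all genes (3.29% higher and 0.895% lower). The same value is the spleen to thymus difference within LN3, 0.28, less the difference of WT CD8 cells and WT thymocytes, −2.32. Organ and CD8 enrichment cannot be told apart in the WT libraries. Dnmt1 was at 1.50 in the same test (SE 0.41, adjusted p = 0.0623) and Tet2 at −2.27 (SE 0.71, adjusted p = 0.101), and neither passed with edgeR as reported. Dnmt1 passed in edgeR after a GC correction that was chosen after seeing the data. Tet2 passed without WT thymocytes 3 (−1.82, adjusted p = 0.0394), and both passed in DESeq2.

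Genes of cell division were set beside Ezh2. The summed level of 16 DNA replication genes was 3220 to 7100 CPM in LN3 spleen and 634 to 1130 CPM in WT CD8 cells, and that of 14 G2/M genes 4210 to 6360 and 209 to 721 CPM. All 16 replication genes and all 14 G2/M genes were called higher in LN3 spleen than in WT CD8 cells, beside 17.9% of all genes. Their median log2 differences were 2.71 and 3.73, beside −0.11 over all genes. Rrm2, a ribonucleotide reductase subunit, averaged 366.8 ± 160 CPM in LN3 spleen and 29.29 ± 25.2 CPM in WT CD8 cells, and the mitotic cyclin Ccnb1 averaged 244.6 ± 99.8 and 11.32 ± 9.31 CPM (SD, n = 3 each). In LN3 thymus the replication sum was 2500 to 4920 CPM, against 2160 to 3640 CPM in WT thymocytes. There 1 of 16 replication genes was called higher, a share near the 6.06% of all genes. It was Prim1 of the DNA primase, a call that was lost without WT thymocytes 1. Of the 14 G2/M genes 0 were called there by edgeR, beside 11.3% of all genes, or by DESeq2 or limma. None had an unadjusted p under 0.05. LN3 spleen against WT thymocytes, where Ezh2 did not pass, had 7 of 16 replication genes called higher, beside 11.3% of all genes. The 16 genes had a median log2 difference of 1.02 there, beside −0.07 over all genes. The 14 G2/M genes had a median of 1.01 there, with 0 called by edgeR, beside 19.8% of all genes. Of them 8 were at an unadjusted p under 0.05, and 2 were called by DESeq2 and 2 by limma-voom. The part of cell division in the Ezh2 result was not tested.

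**Figure D4:**
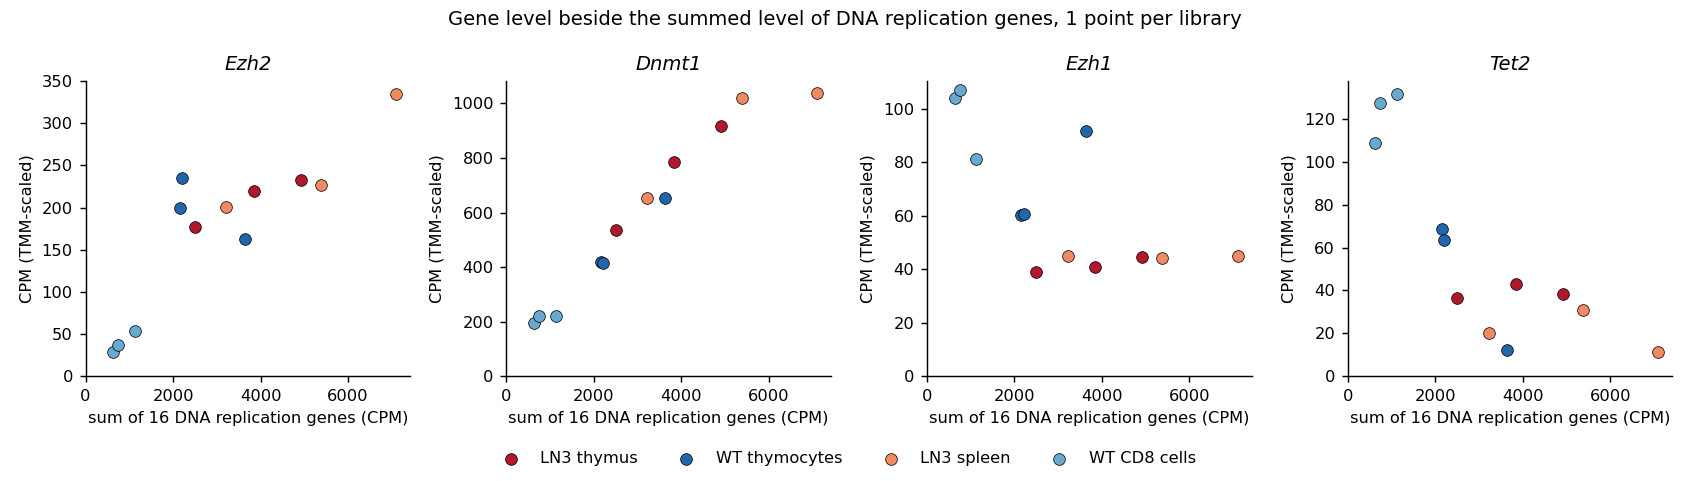
Level of Ezh2, Dnmt1, Ezh1 and Tet2 (y axes, TMM-scaled CPM) beside the summed level of 16 DNA replication genes (x axes, CPM) in each of the 12 libraries, coloured by group. WT CD8 libraries lie at 634 to 1130 CPM of the replication sum, where Ezh2 and Dnmt1 are lowest and Tet2 highest, while Ezh1 overlaps WT thymocytes 3.

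Ezh1 (chr11:101191115-101226463), the PRC2 catalytic subunit of resting cells, had 44.3, 44.85 and 44.93 CPM in LN3 spleen, against 104, 81.21 and 106.9 CPM in WT CD8 cells. It was 2.18-fold lower in LN3 spleen (log2 −1.12, SE 0.22, adjusted p = 0.00281). LN3 thymus held 40.78, 44.5 and 39 CPM, against 60.4, 60.42 and 91.62 CPM in WT thymocytes. All 6 LN3 libraries lay between 39 and 44.93 CPM, under each of the 6 WT libraries. The thymus difference was −0.77 (SE 0.22, adjusted p = 0.0414), a call that was lost whichever 1 of the 12 libraries was left out, with adjusted p between 0.0507 and 0.131, and without WT thymocytes 3 the difference was −0.53. LN3 spleen against WT thymocytes gave −0.66 (SE 0.22, adjusted p = 0.0523). WT CD8 cells against WT thymocytes gave 0.46 (SE 0.22, adjusted p = 0.193), and 0.69 without WT thymocytes 3 (adjusted p = 0.0283).

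The ratio of Ezh2 to Ezh1 counts within a library does not depend on the scaling between libraries. It was 5.38, 5.23 and 4.54 in LN3 thymus, against 3.31, 3.89 and 1.78 in WT thymocytes, and 5.13, 4.48 and 7.45 in LN3 spleen, against 0.28, 0.653 and 0.348 in WT CD8 cells. Neither pair of groups overlapped, and Ezh2 counts outnumbered Ezh1 counts in all groups but the WT CD8 cells. The exact two-sided permutation test gave p = 0.1 for each pair, the smallest possible with 3 against 3 libraries, and 0.188 adjusted over 15 ratio tests. Per kb of annotated exons, Ezh2 averaged 31.4, 38.1, 29.8 and 5.96 CPM in LN3 thymus, LN3 spleen, WT thymocytes and WT CD8 cells, and Ezh1 averaged 5.57, 6.01, 9.52 and 13.1 CPM in the same order.

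Neither of the other core subunits passed in either organ. Suz12 (chr11:79993106-80034123), the scaffold of the complex, had 195.1, 259.2 and 354 CPM in LN3 spleen, against 98.19, 152 and 128.2 CPM in WT CD8 cells, without overlap. Its log2 difference of 1.10 (SE 0.47) did not pass (adjusted p = 0.093). The difference passed without WT thymocytes 3 (1.11, adjusted p = 0.0062), a library outside this pair of groups that adds to the spread estimated over all 4 groups. It also passed in a fit of the 2 groups compared only. Suz12 is the gene of lowest GC content among the 10, and the difference passed after a GC correction (1.79, adjusted p = 0.000338), a correction chosen after seeing the data. In the thymus it had 224.4, 164.1 and 227.6 CPM in LN3 thymus, against 175.3, 223.1 and 39.92 CPM in WT thymocytes, where WT thymocytes 3 was the lowest of all 12 libraries. The thymus difference of 0.49 (adjusted p = 0.577) was 0.06 without that library. Eed (chr7:89954654-89980983), the subunit that reads the finished mark, varied least, from 42.15 to 67.71 CPM over the 12 libraries, and its log2 differences were −0.02 (SE 0.21, adjusted p = 0.962) in the thymus and 0.05 (SE 0.20, adjusted p = 0.869) in the spleen. The gene E230029C05Rik lies antisense to Eed, and whether the counting used strand is not given in the sources used here.

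Among accessory subunits of PRC2, 2 of 9 tested were called in LN3 thymus against WT thymocytes, beside 11.3% of all genes, and 5 of 9 in LN3 spleen against WT CD8 cells, beside 30.9%. Mtf2, a subunit that recruits PRC2 to CpG islands, had 504.3, 571 and 480.8 CPM in LN3 thymus, against 163, 153.6 and 28.22 CPM in WT thymocytes, and 394.4, 476.1 and 633.6 CPM in LN3 spleen, against 63.11, 65.49 and 75.85 CPM in WT CD8 cells. The lowest LN3 library held more than the highest WT library, and the log2 differences were 2.17 (SE 0.48, adjusted p = 0.0123) and 2.88 (SE 0.50, adjusted p = 0.0012). Its paralog Phf1 was lower, at 23.54 ± 3.16 CPM in LN3 thymus and 57.08 ± 12.8 CPM in WT thymocytes (log2 −1.28, adjusted p = 0.0325), and at 22.67 ± 10.3 CPM in LN3 spleen and 90.14 ± 31.2 CPM in WT CD8 cells (log2 −1.99, adjusted p = 0.00146; SD, n = 3 each). The thymus call on Phf1 was lost whichever 1 of the 6 libraries compared was left out (adjusted p up to 0.11). Phf19, the other Polycomb-like paralog, averaged 30.5 ± 12.6 CPM in LN3 spleen and 6.771 ± 1.24 CPM in WT CD8 cells (log2 2.17, adjusted p = 0.00158). The histone chaperones Rbbp4 and Rbbp7 made up the other 2 calls in the spleen, both higher, and the median of the list was 0.12 in the thymus and 0.44 in the spleen, beside −0.04 and −0.11 over all genes.

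Polycomb repressive complex 1 (PRC1) binds the H3K27 mark and ubiquitinates histone H2A. Of its 24 genes, 2 were called higher and 3 lower in LN3 thymus against WT thymocytes, and 5 higher and 2 lower in LN3 spleen against WT CD8 cells, with medians of −0.03 and 0.41. The 7 of 24 called in the spleen are a share near the 30.9% of all genes, and the 5 of 24 in the thymus stand beside 11.3%. The core subunit Bmi1 was at 76.94, 97.28 and 122.5 CPM in LN3 thymus, against 37.77, 41.1 and 9.549 CPM in WT thymocytes (log2 1.74, SE 0.44, adjusted p = 0.0219). The call was lost without LN3 thymus 3 (adjusted p = 0.0662), under library totals and upper-quartile scaling, and in a fit of the 2 groups compared only. The other gene called higher there, Pcgf6, averaged 21.91 ± 2.89 CPM in LN3 thymus and 11.77 ± 0.9 CPM in WT thymocytes (SD, n = 3 each, adjusted p = 0.0434), a call lost in 21 of 24 alternatives. Pcgf5, a subunit of variant PRC1, was at 10.84, 7.859 and 4.759 CPM in LN3 thymus, against 53.99, 64.53 and 26.15 CPM in WT thymocytes (log2 −2.63, SE 0.42, adjusted p = 0.00203), and averaged 14.5 ± 6.04 CPM in LN3 spleen and 48.25 ± 5.37 CPM in WT CD8 cells (log2 −1.74, adjusted p = 0.00731). The H3K27me3-binding Cbx2 was higher in LN3 spleen than in WT CD8 cells (39.86 ± 9.68 and 10.94 ± 2.09 CPM) and its paralog Cbx7 lower (59.72 ± 24.3 and 179.3 ± 64.5 CPM). Scml2 was near the floor of detection in LN3 thymus, at 0.042, 0 and 0.02816 CPM, against 2.027, 1.779 and 0.8602 CPM in WT thymocytes (adjusted p = 0.0017).

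Genes known from textbooks as PRC2 targets (HoxA and HoxB genes, the Cdkn2a and Cdkn2b inhibitors and developmental regulators) were mostly near 0, with 9 of 26 passing the filter. Their sum was 10.8 to 20.4 CPM in LN3 thymus and 11.7 to 15.8 CPM in WT thymocytes, and 13.6 to 20.2 CPM in LN3 spleen and 7.02 to 14.8 CPM in WT CD8 cells. The cell-cycle inhibitor gene Cdkn2a was at 9.408, 7.114 and 2.901 CPM in LN3 thymus, against 0.1351, 0 and 0.08602 CPM in WT thymocytes, and at 7.237, 2.49 and 7.175 CPM in LN3 spleen, against 0.05464, 0.09491 and 0.04378 CPM in WT CD8 cells (adjusted p = 0.00064 and 0.000169). Every LN3 library held Cdkn2a above every WT library, while the WT values are at or under the floor of 3 counts (0.0657 to 0.262 CPM). Cdkn2b, its neighbour, was called higher in both organs at lower levels, 2.708 ± 1.04 CPM in LN3 thymus and 0.129 ± 0.112 CPM in WT thymocytes (SD, n = 3 each, adjusted p = 0.00481), and its call in the spleen (adjusted p = 0.0278) was lost without LN3 spleen 1, LN3 spleen 2, WT CD8 cells 2 or WT CD8 cells 3. Hoxa7 was at 0.084, 0.08272 and 0.02816 CPM in LN3 thymus, against 4.189, 4.11 and 9.377 CPM in WT thymocytes (adjusted p = 0.000438), and Hoxa5 was also called lower there, a call lost when any 1 of the LN3 thymus libraries or WT thymocytes 1 was left out. Neither Hoxa gene was called in LN3 spleen against WT CD8 cells.

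Kdm6b (chr11:69398508-69413675), an H3K27 demethylase induced by signals in many cells, had 87.37, 125.4 and 65.26 CPM in LN3 spleen, against 390.3, 292.2 and 468.2 CPM in WT thymocytes. The groups did not overlap and LN3 spleen was 4.14-fold lower (log2 −2.05, SE 0.32, adjusted p = 0.00144). LN3 thymus, with 280.2, 165.1 and 155.9 CPM, also lay under each WT thymocyte library, and its difference of −0.94 (SE 0.31, adjusted p = 0.071) did not pass in edgeR. It passed in DESeq2 (−0.99, adjusted p = 0.0316) and without LN3 thymus 1, the highest of its group (−1.23, adjusted p = 0.0337). WT CD8 cells, with 126.3, 120.3 and 152.1 CPM, overlapped LN3 spleen (−0.52, SE 0.31, adjusted p = 0.206) and were 2.89-fold lower than WT thymocytes (log2 −1.53, SE 0.31, adjusted p = 0.00571). Kdm6bos lies antisense to the gene.

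Between the organs of LN3 mice, 0 of the 10 genes passed in edgeR, beside 0.723% of all genes (0.694% higher and 0.0287% lower), and 0 passed in DESeq2 and in limma. By edgeR's quasi-likelihood test Kdm6b was the only 1 of them at an unadjusted p under 0.05, lower in each LN3 spleen library than in each LN3 thymus library (log2 −1.11, SE 0.31, adjusted p = 0.16). Tet2 was at −0.92 (SE 0.50, adjusted p = 0.683) and Eed at 0.24 (SE 0.21, adjusted p = 0.835) between LN3 spleen and LN3 thymus.

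Kdm6a (chrX:18162575-18279936), the X-linked H3K27 demethylase, is known in mouse to be transcribed from both X chromosomes. It had 63.97, 77.68 and 139.3 CPM in LN3 thymus, against 85.54, 138.1 and 28.56 CPM in WT thymocytes, and 70.8, 143.9 and 150.1 CPM in LN3 spleen, against 75.4, 127.7 and 146.5 CPM in WT CD8 cells. The spread lay within the groups, and in each group the libraries with Xist were above those without. The 6 libraries with Xist held 127.7 to 150.1 CPM (140.9 ± 7.87), and the 6 libraries with Y-linked genes 28.56 to 85.54 CPM (66.99 ± 20.1; SD, n = 6 each). The exact two-sided permutation test over libraries gave p = 0.00216, the smallest possible with 6 against 6, and 0.0216 adjusted over the 10 genes. That test, also chosen after seeing the data, takes each library as independent and sets the groups aside. Libraries of different groups may share an animal. Added to the fit across all genes as a sex term, chosen after seeing the data, the difference was 1.04 on the log2 scale (SE 0.24), a 2.06-fold higher level with Xist, and its adjusted p over all genes was 0.239, so that it did not pass there (0.144% of all genes did). It passed without WT thymocytes 3 (0.91, adjusted p = 0.0414), whose 28.56 CPM was the lowest, and in DESeq2 (1.04, adjusted p = 0.0255).

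LN3 and WT libraries with Xist stood close together for Kdm6a. Among Y-gene libraries, LN3 spleen 1 held 70.8 CPM and WT CD8 cells 1 held 75.4 CPM. LN3 thymus 1 and 2 held 63.97 and 77.68 CPM, against 85.54 and 28.56 CPM in WT thymocytes 1 and 3, which lay further apart. With Xist, LN3 thymus 3 held 139.3 CPM and WT thymocytes 2 held 138.1 CPM, and LN3 spleen 2 and 3 held 143.9 and 150.1 CPM, against 127.7 and 146.5 CPM in WT CD8 cells 2 and 3. The log2 differences were 0.16 (SE 0.50, adjusted p = 0.888) in the thymus and 0.06 (SE 0.50, adjusted p = 0.934) in the spleen, and both turned negative under library totals as scaling (−0.18 and −0.32). Uty, its paralog on the Y chromosome, had 28.25 to 43.78 CPM in 5 of the 6 Y-gene libraries, 6.624 CPM in WT thymocytes 3, and 0.5035 to 1.104 CPM in those with Xist. Per kb of annotated exons, Kdm6a and Uty together summed to 15.3 to 18 CPM with Xist and to 11.3 to 14.7 CPM in the 5 other Y-gene libraries, with 4.08 CPM in WT thymocytes 3. Of the 31-base words of Kdm6a transcripts, 70 of 8489 also occur in Uty, so few reads could be split between the genes. Of 4 other X genes known to escape inactivation, 0 passed the sex term in edgeR. The differences with Xist were 0.58 for Eif2s3x (SE 0.18, unadjusted p = 0.00819, adjusted p = 0.587), the only 1 of the 4 at an unadjusted p under 0.05, 0.41 for Ddx3x, 0.33 for Kdm5c and 0.04 for Utp14a.

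**Figure D5:**
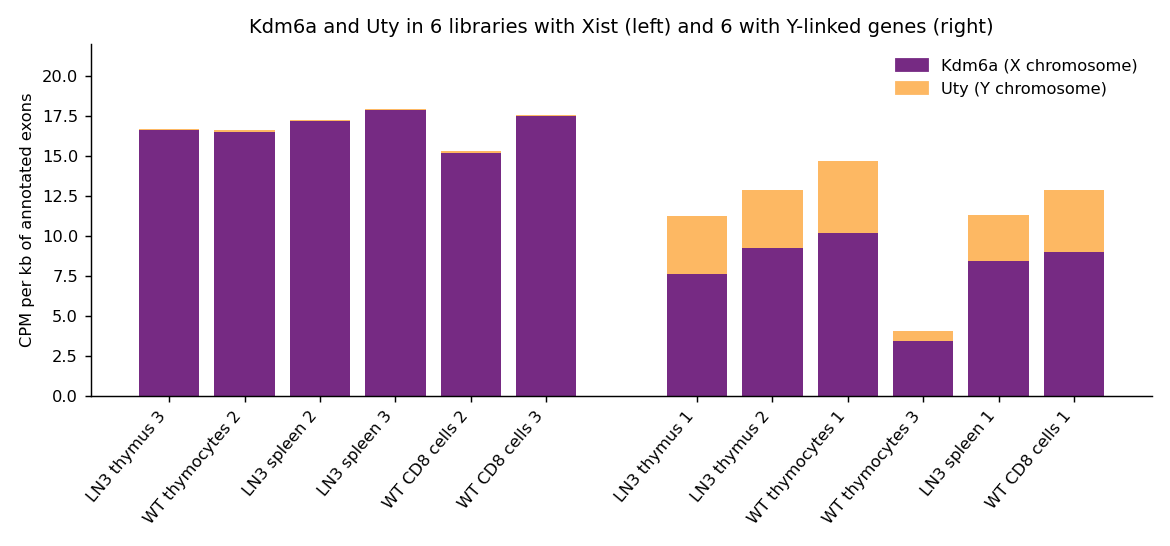
Level of Kdm6a and, stacked on it, of its Y-linked paralog Uty (y axis, CPM per kb of annotated exons) in the 6 libraries with Xist on the left and the 6 with Y-linked genes on the right. The sums are 15.3 to 18 with Xist and 11.3 to 14.7 in the Y-gene libraries other than WT thymocytes 3, which is at 4.08.

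The KMT2C and KMT2D complexes, which hold Kdm6a, methylate H3K4 at enhancers. A list of their other subunits together with Uty had 0 of 10 genes called by edgeR in LN3 thymus against WT thymocytes, beside 11.3% of all genes. DESeq2 and limma also called 0 there, and 0 were at an unadjusted p under 0.05. In LN3 spleen against WT CD8 cells 6 of 10 were called, 4 higher and 2 lower, beside 30.9% of all genes. The 2 catalytic subunits were lower in LN3 spleen, Kmt2d at 380.7, 487.5 and 224 CPM against 1317, 968 and 1789 CPM in WT CD8 cells (log2 −1.90, SE 0.40, adjusted p = 0.00399), and Kmt2c at 165.8, 209.8 and 173.9 CPM against 462.5, 428.4 and 612.9 CPM (log2 −1.45, SE 0.43, adjusted p = 0.0232). The Kmt2c call was lost without LN3 spleen 1, LN3 spleen 3 or WT CD8 cells 3 (adjusted p up to 0.0803). The subunits called higher included Dpy30 (34.89 ± 14.9 CPM in LN3 spleen and 12.12 ± 1.05 CPM in WT CD8 cells) and Paxip1 (115.8 ± 8.39 and 49.4 ± 5.97 CPM; SD, n = 3 each).

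Phf6 (chrX:52912266-52956943) encodes a nuclear PHD-finger protein that binds chromatin and the nucleosome remodelling complex NuRD, and is a tumour suppressor gene in human T-ALL. It had 117.5, 124.8 and 182.3 CPM in LN3 spleen, against 48.79, 57.14 and 56.63 CPM in WT CD8 cells, and 101.3, 164.9 and 133.1 CPM in LN3 thymus, against 73.44, 78.27 and 28.9 CPM in WT thymocytes. Each of the 6 LN3 libraries lay above each of the 6 WT libraries. The level was 2.61-fold higher in LN3 spleen than in WT CD8 cells (log2 1.38, SE 0.35, adjusted p = 0.00979) and 2.35-fold higher than in WT thymocytes (log2 1.23, SE 0.34, adjusted p = 0.0269). In LN3 thymus the log2 difference of 1.14 (SE 0.34) lay at the threshold with an adjusted p of 0.0501, and over 24 alternatives it ran from 0.66 to 1.39 with adjusted p from 0.0195 to 0.213. Scaling by library totals ended the call in the spleen against WT CD8 cells (0.97, adjusted p = 0.0746). The call against WT thymocytes ended without LN3 spleen 3 (1.01, adjusted p = 0.106), under library totals (0.79, adjusted p = 0.151) and under upper-quartile scaling (0.92, adjusted p = 0.0718). Without WT thymocytes 3, the library that lay lowest, the thymus difference was 0.82 (adjusted p = 0.0579). The ranges of Phf6 by Xist overlapped, with 56.63 to 182.3 CPM in libraries with Xist and 28.9 to 164.9 CPM in those with Y-linked genes (0.31, SE 0.25, adjusted p = 0.698).

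Of 11 NuRD genes, 2 were called lower in LN3 thymus against WT thymocytes, beside 5.21% of all genes. In the spleen 3 were called higher and 2 lower than in WT CD8 cells, beside 17.9% and 13% of all genes, so that the count of lower genes is near the background. The remodelling ATPase Chd3 had 20.54, 5.377 and 11.94 CPM in LN3 thymus, against 304, 316.6 and 418.9 CPM in WT thymocytes, and 34.97, 12.45 and 6.435 CPM in LN3 spleen, against 495.7, 479.9 and 708.2 CPM in WT CD8 cells. It was 27.3-fold lower in LN3 thymus (log2 −4.77, SE 0.63, adjusted p = 0.000562) and 31.5-fold lower in LN3 spleen (log2 −4.98, SE 0.64, adjusted p = 0.000169). Mta3 was lower in both organs, at −0.94 in the thymus and −1.20 in the spleen on the log2 scale, and the deacetylases Hdac1 and Hdac2 were higher in LN3 spleen than in WT CD8 cells by 1.12 and 1.33. The Mta3 call in the thymus was lost without LN3 thymus 2, LN3 thymus 3 or WT thymocytes 1, and the Hdac1 call without LN3 spleen 3 or WT CD8 cells 1. The deubiquitinase complex of BAP1, which removes the PRC1 mark, had 0 of 7 tested genes called in LN3 thymus by edgeR, beside 11.3% of all genes. DESeq2 and limma also called 0 there, and 1 was at an unadjusted p under 0.05 in edgeR. Against WT CD8 cells 3 of 7 were called in LN3 spleen, beside 30.9% of all genes, Bap1 and Foxk2 higher by 0.92 and 1.04 and Foxk1 lower at −1.55 on the log2 scale, and the Bap1 call was lost when any 1 of the WT CD8 libraries, LN3 spleen 1 or LN3 spleen 3 was left out. The Foxk2 call was lost without LN3 spleen 3 or WT CD8 cells 1.

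Dnmt1 (chr9:20907209-20959888), the maintenance methyltransferase, had the highest mean level of the 10 genes in every group per kb of annotated exons. It had 1021, 652.6 and 1040 CPM in LN3 spleen, against 195.5, 219.8 and 221.7 CPM in WT CD8 cells, a 4.26-fold higher level without overlap (log2 2.09, SE 0.30, adjusted p = 0.000392). LN3 thymus held 787.1, 916.1 and 537.5 CPM, against 420.1, 415.4 and 654.2 CPM in WT thymocytes, and these overlapped through WT thymocytes 3, the highest of its group (log2 0.59, SE 0.29, adjusted p = 0.235). LN3 spleen differed from WT thymocytes by 0.87 (SE 0.29, adjusted p = 0.0541), and this passed without WT thymocytes 3 (1.13, adjusted p = 0.0169). WT CD8 cells were 2.34-fold lower than WT thymocytes (log2 −1.23, SE 0.29, adjusted p = 0.0139), 1 of 4 genes called lower in that comparison with Ezh2, Dnmt3a and Kdm6b, beside 15.7% of all genes called (7.24% higher and 8.49% lower). That Dnmt1 call was lost without WT CD8 cells 1 (adjusted p = 0.0757) or WT CD8 cells 2 (adjusted p = 0.0503). The replication and G2/M sums given beside Ezh2 stand beside Dnmt1 too, and the part of cell division in its result was not tested.

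Dnmt3a (chr12:3806007-3914443), a de novo methyltransferase, was high in every group but the WT CD8 cells. It had 211, 280.4 and 250.4 CPM in LN3 spleen, against 105.5, 124.2 and 116.8 CPM in WT CD8 cells, 2.14-fold higher (log2 1.10, SE 0.24, adjusted p = 0.00471). LN3 thymus held 313.3, 301.7 and 258.1 CPM, against 239, 198.4 and 339.9 CPM in WT thymocytes (log2 0.17, SE 0.24, adjusted p = 0.728), with WT thymocytes 3 above all LN3 libraries. WT CD8 cells were 2.24-fold lower than WT thymocytes (log2 −1.17, SE 0.24, adjusted p = 0.00597). Dnmt3aos lies antisense to the gene. Per kb of annotated exons, Dnmt1 averaged 101 CPM and Dnmt3a 17.5 CPM in LN3 thymus, and 123 and 14.9 CPM in LN3 spleen, 67.3 and 15.6 CPM in WT thymocytes, and 28.8 and 6.94 CPM in WT CD8 cells.

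Of 10 tested genes that maintain or read DNA methylation, 1 was called higher and 1 lower in LN3 thymus, beside 6.06% and 5.21% of all genes, and 5 higher and 1 lower in LN3 spleen against WT CD8 cells, beside 17.9% and 13%, with medians of 0.20 and 0.98. Uhrf1, which brings Dnmt1 to newly replicated DNA, had 549, 323.3 and 701.9 CPM in LN3 spleen, against 19.23, 60.14 and 25.28 CPM in WT CD8 cells (log2 3.91, SE 0.51, adjusted p = 0.000209). Hells, a remodeller needed for DNA methylation, averaged 191.2 ± 93.6 CPM in LN3 spleen and 25.01 ± 9.11 CPM in WT CD8 cells (log2 2.93, adjusted p = 0.00368). Called in both organs were 2 zinc-finger proteins that bind methylated DNA. Zbtb38 had 126.1, 190.8 and 228.1 CPM in LN3 thymus, against 35.34, 26.81 and 13.33 CPM in WT thymocytes (log2 2.85, SE 0.35, adjusted p = 0.000391), and Zbtb4 had 4.116, 3.309 and 6.054 CPM in LN3 thymus, against 57.97, 42.02 and 73.46 CPM in WT thymocytes (log2 −3.67, SE 0.48, adjusted p = 0.000547). Zbtb38 differed by 1.68 and Zbtb4 by −3.31 in LN3 spleen against WT CD8 cells. Of 14 germline genes that DNA methylation keeps silent, 1 passed the filter, Tuba3a, and was not called. Their sum was 8.19 to 10.4 CPM in LN3 thymus and 3.61 to 7.84 CPM in WT thymocytes, and 2.39 to 6.37 CPM in LN3 spleen and 3.73 to 5.78 CPM in WT CD8 cells. In the thymus groups most of the sum was Tuba3a, at 7.854, 7.28 and 9.659 CPM in LN3 thymus and 7.23, 5.766 and 3.269 CPM in WT thymocytes.

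Tet2 (chr3:133463679-133545139), the methylcytosine oxidase, had 30.78, 20.33 and 11.33 CPM in LN3 spleen, against 109, 131.7 and 127.5 CPM in WT CD8 cells. The groups lay far apart and LN3 spleen was 5.91-fold lower (log2 −2.56, SE 0.52, adjusted p = 0.00322), and WT CD8 cells were the highest group. LN3 thymus held 42.76, 38.55 and 36.64 CPM, against 68.58, 63.37 and 12.13 CPM in WT thymocytes. The first 2 WT thymocyte libraries lay above all LN3 libraries and WT thymocytes 3 under all of LN3 thymus, and the difference of −0.29 (SE 0.49, adjusted p = 0.778) was −0.74 (adjusted p = 0.146) without WT thymocytes 3. LN3 spleen against WT thymocytes gave −1.21 (SE 0.50, adjusted p = 0.104) with that library and −1.65 (adjusted p = 0.00579) without it. WT CD8 cells lay above every WT thymocyte library, at 1.35 (SE 0.50, adjusted p = 0.0906). The antisense gene Gm42567 overlaps Tet2.

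Of 11 genes that act in DNA demethylation beside Tet2, 6 were called higher and 2 lower in LN3 spleen against WT CD8 cells, beside 17.9% and 13% of all genes, with a median of 0.95 beside −0.11 over all genes. The paralog Tet3 was lower in LN3 spleen, at 150.8 ± 34.6 CPM and 337.5 ± 73.1 CPM in WT CD8 cells (log2 −1.16, SE 0.27, adjusted p = 0.00712). The glycosylase Tdg, which excises oxidized methylcytosine, was higher (183.7 ± 57 CPM in LN3 spleen and 41.41 ± 8.08 CPM in WT CD8 cells), as was Idh2, a mitochondrial isocitrate dehydrogenase that makes the cofactor of TET enzymes (167.7 ± 20.6 and 37.05 ± 2.31 CPM; SD, n = 3 each). D2hgdh, a mitochondrial dehydrogenase, was called lower in LN3 spleen (log2 −0.74, adjusted p = 0.0178), a call lost when any 1 of the LN3 spleen libraries, WT CD8 cells 1 or WT CD8 cells 3 was left out.

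The genes whose log2 CPM followed each of the 10 most closely over the 12 libraries were listed by Pearson's r, as a description without a test, since all points share 4 groups and the GC trend of WT thymocytes 3. For Ezh2 they were Efcab11 (0.989), Clspn (0.987) and Pclaf (0.986), for Dnmt1 Anp32b (0.994), Dtymk (0.992) and Smpd4 (0.991), and for Suz12 Dek (0.990), Pds5b (0.983) and Cdc27 (0.978). For Kdm6b they were A630014C17Rik (0.963), Bcl11b (0.961) and Cacfd1 (0.957), and for Phf6 Fxr1 (0.984), Cep57 (0.983) and Dld (0.982). The closest gene reached 0.979 for Ezh1 (H2-T23), 0.976 for Dnmt3a (Slc25a47), 0.972 for Tet2 (A930003O13Rik), 0.955 for Eed (Kpna1) and 0.939 for Kdm6a (Cggbp1).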

How the data were processed

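The authors deposited a table of estimated counts per gene, made with kallisto 0.46.1 on genome build GRCm38 per the submitters' processing notes, which also name FastQC and DESeq2. The sources used here do not give versions of these, the annotation release or the use of strand. The estimated counts were whole numbers as deposited and were used as such. The authors also deposited variance-stabilized log2 values, used here only in an alternative.

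Of 54351 genes, 16997 had no count, and 20897 passed filterByExpr. The 12 libraries held 12694571 to 42483898 counts, and a floor of 3 counts is 0.0657 to 0.262 CPM. Floors cover counting error only. Tests used edgeR 4.0.16 in R 4.3.3 (TMM factors, 4 group means, 8 residual degrees of freedom, robust quasi-likelihood) with Benjamini-Hochberg adjustment over all genes tested, and a gene was called at an adjusted p below 0.05. The common biological coefficient of variation was 0.4411. The 6 contrasts were the 5 pairs of groups described and the difference of the LN3 effects in spleen and thymus. Alternatives used DESeq2 1.42.0, limma 3.58.1, other scalings and filters, a replicate block, a sex term, a GC correction and leaving out each library. Replicates of a group differed in at least 96.5% of genes tested, so no library was counted as a copy.

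Gene positions, exon lengths and GC content are from GENCODE on GRCm38, and upstream sequences from RefSeq on GRCm38.p6. The 10 genes, 12 pathway lists and 8 marker lists were chosen with earlier results of these data known. From each pathway list the text names up to 2 called genes per direction with the largest change in LN3 thymus against WT thymocytes and in LN3 spleen against WT CD8 cells. Rbbp4 and Rbbp7 fall outside that rule and were chosen after their values were seen. A result for 1 gene of the DNA demethylation list is not reported here.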

Additional observations from a re-analysis of the deposited data

Results flagged for a closer look

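The LN3 effect on Ezh2 differed between the organs. The log2 difference of LN3 spleen and WT CD8 cells exceeded that of LN3 thymus and WT thymocytes by 2.60 (SE 0.40), with an adjusted p of 0.00435 in edgeR's quasi-likelihood test over all 12 libraries. It was the only 1 of the 10 genes whose 2 effects differed past the threshold as reported. The effect was 2.67 in the spleen, where the 3 LN3 libraries lay above the 3 WT CD8 libraries, and 0.07 in the thymus, where the groups overlapped. The WT groups differed by −2.32 (WT CD8 cells against WT thymocytes), and LN3 spleen against LN3 thymus by 0.28 (SE 0.28, adjusted p = 0.856). Organ and CD8 enrichment cannot be told apart in the WT libraries.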

How the results depend on the processing

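The number of the 10 genes called moved by over 1.5 times with the processing in 3 of 6 comparisons. In LN3 thymus against WT thymocytes it was 1 as reported, 3 in DESeq2, 2 in limma-voom, with a sex term and after the GC correction, and 0 in limma on the deposited log2 values, in a fit of those 2 groups, with the replicate block and without the 3 libraries whose counts rose most with GC content (LN3 thymus 2, LN3 spleen 1 and WT thymocytes 3), and 0 to 1 when each library was left out. In LN3 spleen against WT thymocytes it was 2 as reported, 4 in DESeq2, after the GC correction and without those 3 libraries, 1 in the fit of the 2 groups, and 1 to 4 when each library was left out. For the difference of the LN3 effects it was 1 as reported, 3 in DESeq2, 2 after the GC correction and without those 3 libraries, and 1 to 2 when each library was left out. It was 6 as reported in LN3 spleen against WT CD8 cells, with 5 to 7 over the alternatives. In WT CD8 cells against WT thymocytes it was 4 as reported, 5 in limma-voom, 6 without those 3 libraries, 3 with the replicate block within genotype and 3 to 5 when each library was left out, and between the LN3 organs it was 0 in all. The higher level of Kdm6a with Xist (1.04) passed in DESeq2 (1.04, adjusted p = 0.0255) and with no filter on low counts (1.07, adjusted p = 0.00107), and ran from 0.91 to 1.20 when each library was left out, passing without WT thymocytes 3. The GC correction, the fit without those 3 libraries and the sex term were chosen after seeing the data. The cause of these changes was not tested.

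Of 1471 values of log2 differences of the 10 genes under alternatives, 1352 kept their direction and their side of the threshold, 25 lost and 39 gained the call, and 55 changed sign, of which 0 were called either way. In LN3 thymus against WT thymocytes, Ezh2 (0.07 as reported) was at −0.17 by library totals, −0.11 by upper-quartile scaling and without the 3 GC libraries, −0.10 after the GC correction, and −0.04 to 0.21 when each library was left out. Eed (−0.02) was at 0.01 with no filter and −0.09 to 0.03 with a library left out, Kdm6a (0.16) at −0.18, −0.07 and −0.09 by totals, upper quartile and without the 3 libraries and −0.24 to 0.72 with a library left out, and Tet2 (−0.29) at 0.01 in limma-voom and −0.74 to 0.07. In LN3 spleen against WT CD8 cells, Eed (0.05) was at −0.36 by totals, −0.30 by upper quartile, −0.29 in limma on deposited values and −0.12 to 0.16 with a library left out, and Kdm6a (0.06) at −0.32, −0.27 and −0.16 to 0.35 by totals, upper quartile and left-out libraries. In LN3 spleen against WT thymocytes, totals put Ezh2 (0.35) at −0.05 and Eed (0.22) at −0.16, upper quartile put Eed at −0.06, and Dnmt3a (−0.07) was at 0.02 after the GC correction, 0.39 without the 3 libraries and −0.23 to 0.19 with a library left out. Between LN3 spleen and LN3 thymus, Ezh1 (0.11) was at −0.03 by totals and −0.09 in limma on deposited values, and Phf6 (0.09) at −0.02 by totals, −0.03 with the sex term and −0.14 to 0.28 with a library left out. In WT CD8 cells against WT thymocytes, Eed (0.17) was at −0.13 after the GC correction, Suz12 (−0.21) at 0.08 in limma-voom, 0.17 in limma on deposited values, 0.07 with the replicate block within genotype and −0.66 to 0.22 with a library left out, and Phf6 (−0.15) at −0.48 to 0.07. For the difference of the LN3 effects, Eed (0.07) was at −0.12 by totals, −0.10 by upper quartile, −0.19 in limma on deposited values and −0.10 to 0.18 with a library left out, and Kdm6a (−0.09) at 0.07 after the GC correction, 0.52 without the 3 libraries and −0.64 to 0.32.

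Replicate numbers were not read as pairs: 4 of 18 same-number pairs correlated above 0.1 in their deviations from the group means, and 2 of 12 libraries correlated best with their own number. Xist was at 3.888 CPM in LN3 thymus 2 and 4025 CPM in LN3 spleen 2. It was at 1.032 CPM in WT thymocytes 3 and 1615 CPM in WT CD8 cells 3. As labelled, the libraries of each of these pairs came from different animals, and the replicate block joins them all the same. With the replicate block, 0, 6, 2, 0, 4 and 1 of the 10 genes were called in the 6 comparisons in the order LN3 thymus against WT thymocytes, LN3 spleen against WT CD8 cells, LN3 spleen against WT thymocytes, LN3 spleen against LN3 thymus, WT CD8 cells against WT thymocytes and lastly the effects' difference. Of 3480 counts of called list genes under alternatives, 396 moved by over 1.5 times. Depth limits the genes near the floor of 3 counts.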

Other observations

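In LN3 thymus 1, a library with Y-linked genes, Ddx3y was at 81.94 CPM, Uty at 35.66 CPM and Kdm5d at 69.09 CPM, while Eif2s3y, also Y-linked, was at 0.882 CPM.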
